A study of Mus musculus with 4 samples.

Results

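The gene set described here holds antiviral genes that type I interferon switches on, listed by symbol without the guanylate-binding and immunity-related GTPases. Its members were chosen with earlier results of these data known. Of the 38 listed genes, 36 were found by symbol among the 32285 genes of the count tables. Mx1 and Mx2 were not analysed here. The genes were followed across cell classes of mouse lung in 4 droplet single-cell RNA libraries, 1 per group. All mice were male wild-type C57BL/6 animals aged 6 to 7 weeks. The PBS library came from lungs given intratracheal phosphate-buffered saline, with no irradiation. The PBS+RT library received the same saline and 1 Gy of X-rays to the thorax on the following day. The LPS library received 200 µg of lipopolysaccharide per mouse, a bacterial cell wall component that starts acute lung inflammation, and no irradiation. The LPS+RT library received that dose and then the 1 Gy. Lungs were taken 48 hours after instillation, which was 24 hours after irradiation. The labels do not give the number of mice behind a library, and all cells had passed a Ficoll step meant to keep mononuclear cells.

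Type I interferons bind the receptor made of IFNAR1 and IFNAR2, which carries the kinases TYK2 and JAK1. These phosphorylate transcription factors such as STAT2, which joins IRF9 in the complex ISGF3 to bind interferon-stimulated response elements in the promoters of target genes. The products block viral RNA and protein synthesis, sense foreign nucleic acid and feed back on the pathway. Many of the same genes also respond to interferon-gamma, which acts through a different element. In the lung these genes are known from viral infection and are also switched on by LPS through Toll-like receptor 4.

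The promoters of the set are shown first because they carry the letters of the response element. In a RefSeq promoter table of build GRCm38.p6, 27 of the 38 listed genes have an entry. Usp18, Zbp1, Ifi27l2a, Oas2, Parp9, Parp14, Rtp4, Ifi204, Dhx58, Mx1 and Mx2 have none there. The core of the response element was searched as GAAA, any 2 bases and GAAA, on both strands (TTTC, any 2 bases and TTTC on the other), in the 250 bases before the start. It stood in 11 of these 27 genes (40.7%), and over the genes of the whole collection in 936 of 27025 (3.46%). The 11 genes are Bst2, Ifi203, Ifi211, Ifit1, Ifit3, Ifit3b, Isg15, Oas1a, Oas3, Rsad2 and Stat2. The letters TTCNNNGAA, which read the same on both strands and have the form of the element used by interferon-gamma, were in 5 of 27 (18.5%) against 8.13% of all genes. A match is a string of letters and not a measured binding site.

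Stretches of 80 bases follow in the direction of transcription for 8 genes with a match and for Samhd1. The latter has none in its window and differed between LPS and PBS in opposite directions in different cell classes. Capitals mark each match of the searched core on either strand, and overlapping matches run together. The positions are those of build GRCm38.p6, in the order chr4:156200840-156200919 (minus strand) for Isg15, chr19:34640769-34640848 (plus) for Ifit1, chr19:34583372-34583451 (plus) for Ifit3, chr19:34607768-34607847 (plus) for Ifit3b, chr12:26456528-26456607 (minus) for Rsad2, chr5:120907526-120907605 (minus) for Oas1a, chr10:128270248-128270327 (plus) for Stat2, chr8:71537552-71537631 (minus) for Bst2 and chr2:157135097-157135176 (minus) for Samhd1.
Isg15: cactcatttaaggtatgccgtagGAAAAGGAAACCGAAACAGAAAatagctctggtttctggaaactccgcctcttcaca
Ifit1: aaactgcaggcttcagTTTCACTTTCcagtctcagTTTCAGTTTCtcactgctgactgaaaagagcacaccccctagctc
Ifit3: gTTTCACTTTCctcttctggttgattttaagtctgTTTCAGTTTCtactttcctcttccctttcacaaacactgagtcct
Ifit3b: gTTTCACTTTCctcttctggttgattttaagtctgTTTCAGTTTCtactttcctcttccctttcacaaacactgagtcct
Rsad2: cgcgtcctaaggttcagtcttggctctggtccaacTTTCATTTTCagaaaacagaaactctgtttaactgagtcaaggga
Oas1a: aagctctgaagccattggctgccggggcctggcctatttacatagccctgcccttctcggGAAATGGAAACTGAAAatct
Stat2: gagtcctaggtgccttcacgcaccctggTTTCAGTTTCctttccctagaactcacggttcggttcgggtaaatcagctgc
Bst2: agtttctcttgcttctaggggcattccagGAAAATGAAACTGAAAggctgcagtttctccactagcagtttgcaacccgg
Samhd1: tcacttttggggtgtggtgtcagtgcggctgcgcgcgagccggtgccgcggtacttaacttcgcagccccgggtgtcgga
Isg15 holds 3 overlapping matches, Ifit1 and Ifit3 hold 2 separate ones, and the stretches of Ifit3 and Ifit3b are identical in 80 of 80 bases.

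Several members lie beside each other in the genome (mm10, GENCODE release M21). The Ifit genes run along chromosome 19 from 34550694, the start of Ifit2, to 34650009, the end of Ifit1. Oas2 (ENSMUSG00000032690), Oas3 (ENSMUSG00000032661) and Oas1a (ENSMUSG00000052776) lie on chromosome 5 between 120730333 and 120907521, and Oasl2 and Oasl1 between 114896936 and 114937915. Ifi209, Ifi204, Ifi211 and Ifi203 lie on chromosome 1 between 173630917 and 173942672. Parp14, Dtx3l and Parp9 lie on chromosome 16 between 35832874 and 35972605. Rsad2 and Cmpk2 are neighbours on chromosome 12, at 26442746 to 26456452 and 26469204 to 26479837. Counts of near-identical copies such as Ifit3 and Ifit3b, the Oas genes and the Ifi200 genes are uncertain, because reads can fit more than 1 copy. Dtx3l (35926511 to 35939151, minus strand) overlaps Parp9 (from 35938470, plus strand), and the strand setting of the counting is not given in the sources used here.

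Values for all 4 libraries are given in the order PBS, PBS+RT, LPS and LPS+RT throughout. After filtering, 8891, 6227, 9000 and 9612 cells remained, with medians of 4266, 8561, 5574 and 4253 UMIs (unique molecular identifiers, the tags that tell captured RNA molecules apart). A level is the count of a gene divided by all UMIs of its cell class in that library and scaled to CPM (counts per 1000000). Classes carry the suffix "-like" because they were rebuilt from marker genes, with the interferon genes left out of the clustering. Clusters that stayed unnamed held 13.7% to 27.2% of the cells of a library. Each group is 1 library, so there is no spread between replicates to compare with and no test was run. The intervals are exact and of 95%, and they cover counting error only. A gene was counted as measured if it reached 5 CPM in either library and 10 UMIs over both, and as higher or lower from 1.5-fold on.

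Summed over all cells, the members made up 1318, 1347, 2823 and 1316 CPM. LPS was thus the only high library, and LPS+RT stood at the level of the saline libraries. The cells behind the sums differed. Endothelial-like cells gave 31.8% of all member UMIs in PBS, 46.0% in PBS+RT and 23.0% in LPS+RT. In LPS, neutrophil-like cells gave 31.6% and classical monocyte-like cells 31.5%. There were 3642 neutrophil-like cells in LPS against 78, 119 and 906 in PBS, PBS+RT and LPS+RT. The gap in depth between libraries and the Ficoll step, which is made to remove granulocytes, bear on these shares, so the rest of the account stays within classes.

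Within dendritic cell-like cells the members together stood at 1171, 1281, 4031 and 1362 CPM. Neutrophil-like cells had 1304, 1624, 3521 and 1427 CPM, and alveolar macrophage-like cells 589, 565, 1221 and 622. In these 3 classes LPS stood far above the other libraries. Classical monocyte-like cells had 4952, 3654, 4097 and 2985 CPM, with the highest sum in PBS. Ifi27l2a alone gave 1742, 933, 385 and 749 CPM of these sums. The first place of PBS rests on that gene, and with it set aside LPS would be highest. Endothelial-like cells had 1904, 1995, 2529 and 1813 CPM, and T cell-like cells 1491, 1677, 2058 and 1522.

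**Figure D1:**
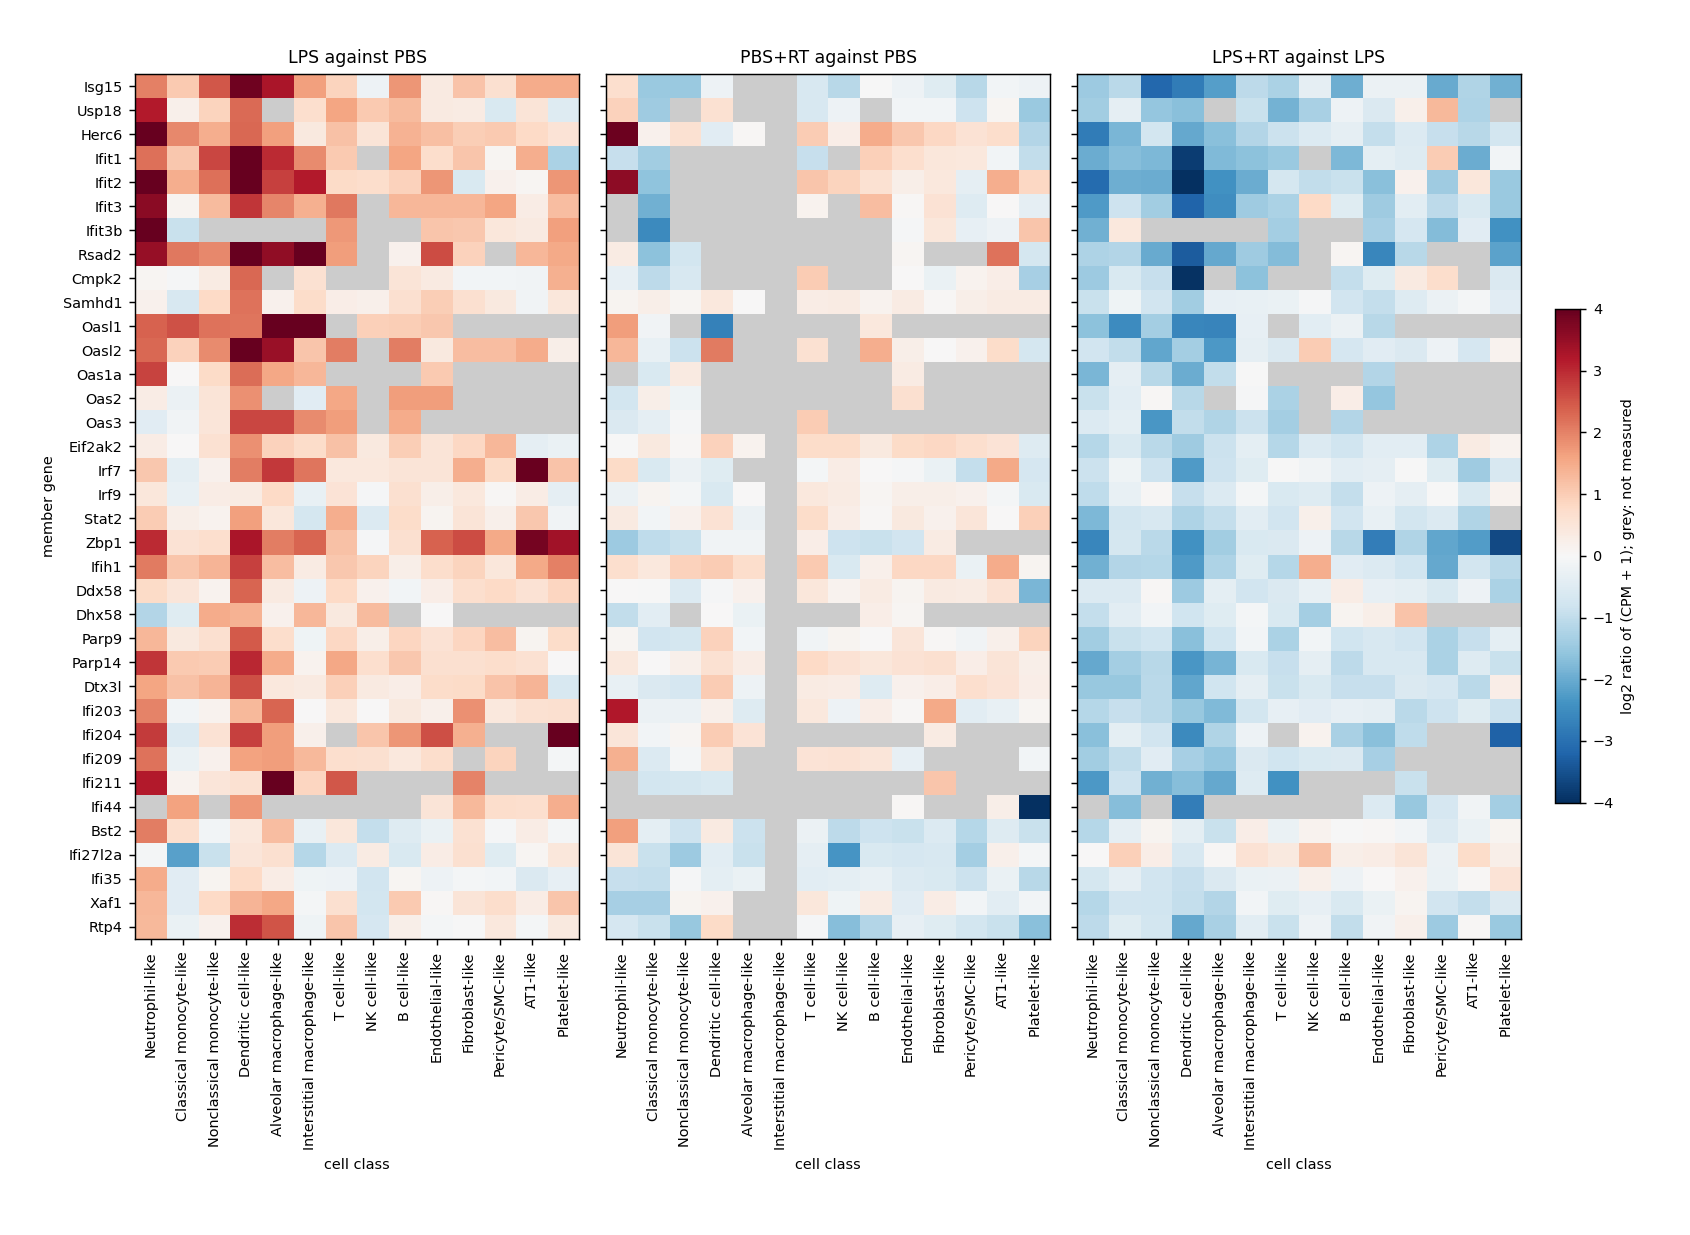
Each square is the log2 ratio of 1 member gene (rows, with 1 CPM added to both levels) in 1 cell class (columns), for LPS against PBS, PBS+RT against PBS and LPS+RT against LPS. Red is higher and blue lower in the first library, the scale stops at 4 in either direction, and grey marks genes that were not measured or classes with too few cells. The left panel is mostly red, the right panel mostly blue with Ifi27l2a as an exception, and the middle panel holds both colours.

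LPS was compared with PBS first, which sets the inflamed lung against the lung given saline. In dendritic cell-like cells 32 of 35 measured members were at least 1.5-fold higher and none lower, where 29.6% of all 10141 genes were higher and 15.5% lower. Their median log2 ratio was 2.46, with medians of the members' interval bounds at 1.55 and 3.38, and that of all genes was 0.23. Neutrophil-like cells had 27 of 35 higher and 1 lower (31.5% and 25.6% of all genes), with a median of 2.08 beside 0.12. Alveolar macrophage-like cells had 25 of 31 higher and none lower (17.2% and 14%), with a median of 1.78 beside 0.03. T cell-like cells had 23 of 31 higher and none lower (20.6% and 11.3%), with a median of 1.10 beside 0.11. These shares lie far from the background of the same class. In classical monocyte-like cells 13 of 36 were higher and 3 lower (24% and 25.6%), with a median of 0.12 beside -0.03, which is close to the background. Cluster 26 was the 1 cluster of that class with cells in both libraries. Inside it the members summed to 4952 CPM in PBS and 5391 in LPS, of which Ifi27l2a gave 1742 and 1041 CPM. The share of all genes higher inside that cluster is not given here.

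The structural and blood-borne classes lay between these ends. Fibroblast-like cells had 22 of 30 members higher and 1 lower (13.6% and 16.6% of all genes), with a median of 0.87. B cell-like cells had 20 of 31 higher and 1 lower (17.7% and 13.3%), with a median of 0.77. Endothelial-like cells had 16 of 34 higher and none lower (13.4% and 10.3%), with a median of 0.56. In the smaller classes the members higher and lower were 19 and 1 of 34 in nonclassical monocyte-like (17.3% and 20.3% of all genes), 18 and 2 of 34 in interstitial macrophage-like (17.6% and 25.5%), 15 and 2 of 30 in platelet-like (16.2% and 27.8%) and 14 and 1 of 28 in AT1-like cells (16.6% and 23%). Pericyte-like cells had 14 and 1 of 28 (18.3% and 19.1%) and NK cell-like cells 8 and 4 of 25 (14.8% and 18.8%). In the 14 classes that reached 50 cells on either side the median was above 0 in 14, from 0.12 in classical monocyte-like to 2.46 in dendritic cell-like cells. The neutrophil-like, classical monocyte-like, alveolar macrophage-like, T cell-like, endothelial-like and fibroblast-like classes each join several clusters, and in the first 3 of them different clusters held most of the PBS and LPS cells. Cluster 0 held 1976 neutrophil-like cells in LPS and 6 in PBS, cluster 20 held 571 classical monocyte-like cells in LPS and 0 in PBS, and alveolar macrophage-like cells lay mainly in cluster 5 in PBS (545 of 630) and cluster 16 in LPS (172 of 183).

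**Figure D2:**
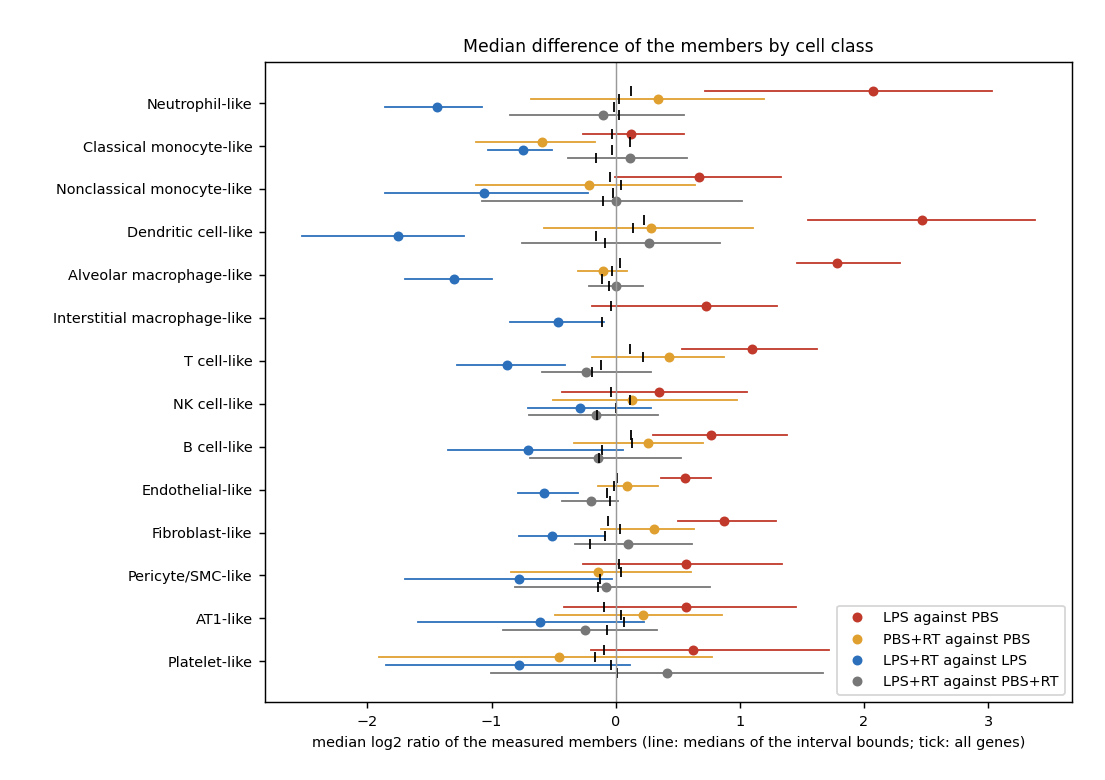
Points give the median log2 ratio of the measured members in each class (x axis) for 4 comparisons (colours), lines run between the medians of the members' 95% interval bounds, and black ticks mark the median of all genes. LPS against PBS lies to the right of 0 in every class shown and LPS+RT against LPS to the left, while the other comparisons lie near 0 with lines that mostly cross it.

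LPS+RT was then compared with LPS, which sets the inflamed lung with irradiation against the inflamed lung without it. With 1 library per group, irradiation cannot be told apart from other differences between the libraries. This comparison shares the LPS library with the first, so a gene high in that library by any route is high in 1 and low in the other, and the values are given side by side. In dendritic cell-like cells 34 of 35 measured members were lower in LPS+RT and none higher, where 22.4% of all genes were lower and 12.2% higher, and the median log2 ratio was -1.75 beside -0.16 for all genes. In neutrophil-like cells 32 of 35 were lower and none higher (14% and 11.4%), with a median of -1.44 beside -0.02. Alveolar macrophage-like cells had 27 of 31 lower and none higher (12.8% and 5.33%), with a median of -1.30. T cell-like cells had 24 of 31 lower and none higher (14.8% and 7.52%), with a median of -0.87. All 4 shares stand well outside the background.

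Classical monocyte-like cells, whose members had a median near 0 between LPS and PBS, had 21 of 36 members lower in LPS+RT than in LPS and 1 higher (11.4% and 8.92%), with a median of -0.74. B cell-like cells had 17 of 32 lower and none higher (13.1% and 7.65%, median -0.70), endothelial-like cells 16 of 34 and none (11.4% and 5.85%, median -0.58), and fibroblast-like cells 13 of 31 and 1 (14% and 7.8%, median -0.52). Lower and higher were 27 and 0 of 34 in nonclassical monocyte-like (19.9% and 14.8%), 14 and 1 of 34 in interstitial macrophage-like (15.2% and 6.29%), 17 and 0 of 27 in platelet-like (21.3% and 18.7%), 16 and 3 of 27 in pericyte-like (21.9% and 13.5%) and 14 and 1 of 26 in AT1-like cells (16.4% and 21.6%). NK cell-like cells, at 5 and 4 of 27 (11.2% and 12.2%), stood near the background. The median was below 0 in 14 of 14 classes. Classical monocyte-like cells of LPS and LPS+RT shared cluster 20 (571 and 122 cells) and cluster 26 (114 and 102). Inside cluster 20 the summed level of the members was 3947 CPM in LPS and 1929 in LPS+RT, and inside cluster 26 it was 5391 and 5009. In cluster 26 PBS stood at 4952 and PBS+RT at 3688 CPM. Of these cluster 26 sums, Ifi27l2a alone gave 1742, 944, 1041 and 1692 CPM in PBS, PBS+RT, LPS and LPS+RT. With that gene set aside, LPS would stand highest there and the gap from LPS to LPS+RT would be wider.

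LPS+RT was also set against PBS+RT, where both lungs had been irradiated. In dendritic cell-like cells 9 of 29 measured members were higher and 1 lower (19.1% and 24.1% of all genes, median 0.27). In neutrophil-like cells 10 of 35 were higher and 12 lower (29.9% and 28.4%, median -0.11). In endothelial-like cells 2 of 31 were higher and 5 lower (8.16% and 7.5%, median -0.20), and in T cell-like cells 2 of 27 and 7 (7.6% and 19.5%, median -0.24). Of the members in classical monocyte-like cells, 9 of 35 were higher and 7 lower (18.5% and 30.8%), in alveolar macrophage-like 8 of 21 and 2 (17.2% and 18.8%), in fibroblast-like 10 of 29 and 4 (10.6% and 24.5%) and in B cell-like cells 2 of 28 and 3 (5.78% and 13.7%). Nonclassical monocyte-like cells had 9 of 28 higher and 7 lower (14.2% and 19.5%), NK cell-like 5 of 24 and 5 (11.6% and 19.1%), AT1-like 3 of 27 and 7 (15.7% and 21.3%), pericyte-like 6 of 25 and 6 (14.5% and 24.9%) and platelet-like cells 12 of 25 and 5 (22.4% and 18.7%). The share of higher members was near or below the background in neutrophil-like, endothelial-like, T cell-like, B cell-like and AT1-like cells and above it in the other 8 classes. The class medians ran from -0.25 in AT1-like to 0.41 in platelet-like cells.

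PBS+RT against PBS sets the saline lung with irradiation against the saline lung without it, again with 1 library each. In classical monocyte-like cells 18 of 35 measured members were lower and none higher, where 14.9% of all genes were lower and 25.8% higher, with a median log2 ratio of -0.59 (medians of the bounds -1.13 and -0.16) beside 0.11. This was the lowest of the 14 class medians. Endothelial-like cells had 6 of 32 higher and 3 lower (12.7% and 15.1%, median 0.09). Inside cluster 2 of that class, with 209 cells in PBS and 916 in PBS+RT, the members summed to 2131 and 2649 CPM. Inside clusters 6, 10, 11 and 31 the sum was lower in PBS+RT, as in cluster 10 with 1810 and 1373 CPM. T cell-like cells had 9 of 27 higher and 3 lower (26.2% and 10.4%, median 0.43 beside 0.22), dendritic cell-like cells 10 of 26 and 3 (27.4% and 17.9%, median 0.29), and neutrophil-like cells 11 of 31 and 8 (22.7% and 19.6%, median 0.34). Fibroblast-like cells had 7 of 28 and 2 (17.8% and 14.3%), B cell-like 5 of 26 and 4 (18.3% and 11.3%), AT1-like 6 of 27 and 1 (19.3% and 13%), NK cell-like 4 of 22 and 6 (23.2% and 16%) and pericyte-like cells 3 of 25 and 7 (20.7% and 19.6%). Alveolar macrophage-like cells had 1 of 17 higher and 2 lower (6.89% and 12.1%). Nonclassical monocyte-like cells had 2 of 28 higher and 11 lower (19.4% and 20.5%), platelet-like cells 4 of 28 and 13 (13.7% and 30%) and erythroid-like cells 8 of 12 and 2 (56.1% and 9.9%). In percentage points, the shares of lower members in classical monocyte-like, nonclassical monocyte-like and platelet-like cells stood furthest above their backgrounds. Distances in the other classes were smaller. Among them, higher members exceeded the background in neutrophil-like and dendritic cell-like cells, and lower members did so in NK cell-like cells. None of these distances was tested. PBS+RT had 119 neutrophil-like, 82 classical monocyte-like and 50 dendritic cell-like cells, which limits these values.

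The ubiquitin-like modifier and its enzymes come first among the members. Isg15 (ENSMUSG00000035692, chromosome 4, 156199424 to 156200818) encodes a ubiquitin-like protein that is attached to viral and host proteins and is also released. In neutrophil-like cells it was at 83.5, 134, 339 and 124 CPM. Its levels in dendritic cell-like cells were 18.1, 15.5, 282 and 39.6 CPM. LPS was the high library in both classes, with log2 ratios to PBS of 2.02 (1.57 to 2.52) and 3.96 (3.43 to 4.54) and to LPS+RT, taken as LPS+RT over LPS, of -1.45 (-1.59 to -1.30) and -2.83 (-3.24 to -2.45). Its levels in classical monocyte-like cells were 122, 42.9, 254 and 120 CPM, so that PBS+RT was the low library. In alveolar macrophage-like cells the levels were 4.10, 1.64, 47.8 and 9.68 CPM, and in endothelial-like cells 71.7, 62.1, 92.7 and 78.2, a much flatter series. The endothelial-like class mixes clusters in unlike shares, with cluster 2 at 11.2% of its cells in PBS and 46.9% in PBS+RT. Inside cluster 2 Isg15 was at 81.0, 105, 119 and 123 CPM, and inside cluster 10 at 51.0, 15.4, 82.4 and 32.1. Isg15 was at least 1.5-fold higher in LPS than in PBS in 12 of 14 classes and lower in none.

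Usp18 encodes the protease that takes ISG15 off its targets and also blocks signalling at IFNAR2. It was at 4.28, 9.06, 46.1 and 17.0 CPM in neutrophil-like cells and 8.45, 13.6, 44.4 and 13.2 in dendritic cell-like cells. In T cell-like cells it was at 11.4, 6.87, 36.0 and 9.06 CPM. The 3 classes share a peak in LPS. Endothelial-like cells, at 22.8, 20.9, 29.3 and 19.4 CPM, did not reach 1.5-fold above either saline library in LPS. Herc6, the ligase that attaches ISG15 in mice, behaved differently from both in the irradiated saline library. It was at 75.3, 161, 174 and 90.04 CPM in endothelial-like cells, with a log2 ratio of PBS+RT to PBS of 1.10 (0.99 to 1.20). In B cell-like cells it was at 15.02, 43.6, 40.8 and 31.3 CPM. Herc6 was higher in PBS+RT than in PBS in 9 of 14 classes and lower in 1, while Isg15 was lower in 6 of 13 and higher in 1. In neutrophil-like cells the Herc6 levels were 2.14, 46.3, 141 and 19.4 CPM, where PBS rests on 1 UMI.

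**Figure D3:**
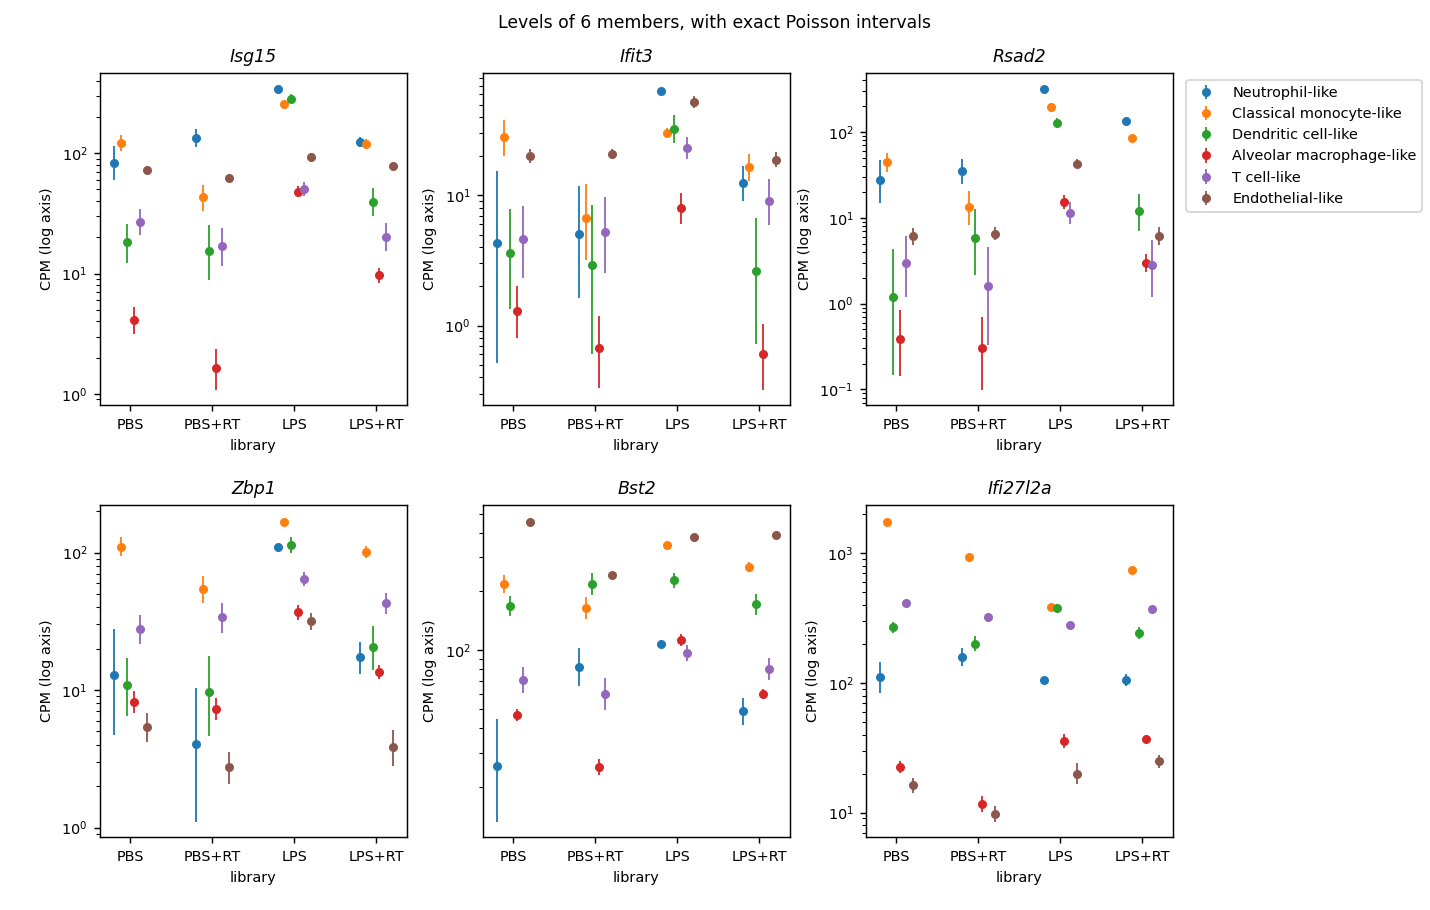
Levels of 6 members in CPM on a log axis (y), by library (x) and class (colours), with exact Poisson intervals of 95% as bars. Isg15, Ifit3, Rsad2 and Zbp1 peak in LPS in most classes, Bst2 is nearly flat in LPS and LPS+RT in endothelial-like cells, and Ifi27l2a is lowest in LPS in classical monocyte-like cells.

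The IFIT proteins bind foreign RNA ends and block their translation. Ifit3 (ENSMUSG00000074896, chromosome 19, 34583531 to 34588731) was at 20.0, 20.9, 52.3 and 18.8 CPM in endothelial-like cells. The 3 other libraries stood together there, with LPS above them by a log2 ratio of 1.39 (1.14 to 1.63) over PBS. In neutrophil-like cells Ifit3 was at 4.28, 5.03, 63.4 and 12.5 CPM, and in dendritic cell-like cells at 3.62, 2.91, 32.6 and 2.64. In AT1-like cells, the flat cells of the air sacs, Ifit3 had a higher base and a small difference, at 132, 134, 162 and 107 CPM. Ifit2 was at 0, 11.1, 65.7 and 6.85 CPM in neutrophil-like cells, with no UMI in PBS. Against a floor of 3 counts in PBS it was at least 10.2-fold higher in LPS. Ifit1 had no UMI in dendritic cell-like cells of PBS or PBS+RT, 49.9 CPM in LPS and 2.64 in LPS+RT, at least 27.5-fold higher in LPS than in PBS against the same floor per library. Over the Ifit genes and classes, 38 of 48 measured pairs of gene and class were higher in LPS and 3 lower, and 38 of 49 were lower in LPS+RT than in LPS and 2 higher. Across the 14 classes, 13.4% to 31.5% of all genes were higher in LPS than in PBS, and 11.2% to 22.4% were lower in LPS+RT than in LPS, which are the backgrounds for each such count of pairs.

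Among genes that act on the nucleotide supply, Rsad2 and Samhd1 differed most from each other. Rsad2 (ENSMUSG00000020641, chromosome 12, 26442746 to 26456452) encodes viperin, which makes a chain-terminating nucleotide. It was at 1.21, 5.81, 129 and 11.9 CPM in dendritic cell-like cells, with log2 ratios of 6.74 (4.87 to 9.79) for LPS to PBS and -3.44 (-4.22 to -2.75) for LPS+RT to LPS. The PBS value is 2 UMIs. In endothelial-like cells it was at 6.12, 6.52, 42.8 and 6.16 CPM, the same level in 3 libraries and 6.99-fold above PBS in LPS (log2 ratio 2.81, 2.44 to 3.19). Neutrophil-like cells had more of the LPS level left in LPS+RT, at 27.8, 35.2, 318 and 136 CPM, as did classical monocyte-like cells at 44.3, 13.4, 195 and 85.3 CPM. Rsad2 was higher in LPS in 11 of 12 classes and lower in none.

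Samhd1 (ENSMUSG00000027639, chromosome 2, 157097533 to 157135265) encodes a hydrolase that empties the nucleotide pool. Dendritic cell-like cells had it at 154, 206, 697 and 265 CPM, a log2 ratio of LPS to PBS of 2.18 (1.98 to 2.38). In neutrophil-like cells it was at 415, 445, 472 and 252 CPM, where LPS did not stand out and LPS+RT was the low library. The levels in classical monocyte-like cells were 854, 997, 546 and 482 CPM, lower in both LPS libraries (log2 ratio of LPS to PBS -0.65, -0.73 to -0.56). In nonclassical monocyte-like cells it was at 853, 905, 1496 and 883 CPM, with LPS alone high. Samhd1 thus differed in opposite directions in these monocyte classes. All 103 classical monocyte-like cells of PBS lay in cluster 26, while cluster 20 held 571 of the 685 of LPS. The Samhd1 levels of LPS and PBS inside single clusters are not given here. Cmpk2, a mitochondrial nucleotide kinase beside Rsad2, was at 4.23, 0.969, 24.7 and 0.660 CPM in dendritic cell-like cells and flat between PBS and LPS in neutrophil-like cells, at 32.1 and 33.8.

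The OAS proteins make a second messenger that activates RNase L, their OASL relatives act on sensing and on translation of Irf7, and Eif2ak2 encodes the kinase PKR, which stops protein synthesis. Oasl1 (chromosome 5) was at 14.3, 12.7, 88.6 and 14.8 CPM in classical monocyte-like cells, with LPS+RT back at the level of the saline libraries. Dendritic cell-like cells had Oasl1 at 30.8, 3.88, 139 and 21.8 CPM, lower in PBS+RT than in PBS by a log2 ratio of -2.99 (-4.92 to -1.55). In alveolar macrophage-like cells the levels were 0, 0.0606, 17.7 and 2.03 CPM, at least 90.5-fold higher in LPS than in PBS. Oasl1 was higher in LPS in 9 of 9 classes. Oasl2 was at 3.62, 18.4, 72.6 and 27.7 CPM in dendritic cell-like cells and 32.1, 82.5, 160 and 93.5 in neutrophil-like cells. Both classes had more Oasl2 in PBS+RT than in PBS. Oas3 went against the group in neutrophil-like cells, at 64.2, 42.3, 47.0 and 31.9 CPM. Eif2ak2 was at 46.2, 79.0, 67.2 and 49.8 CPM in endothelial-like cells, highest in PBS+RT. Over these genes and classes, 43 of 59 pairs were higher in LPS than in PBS and none lower, and 38 of 60 were lower in LPS+RT than in LPS and 1 higher.

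The transcription factors of the pathway differed less. Irf7 (ENSMUSG00000025498, chromosome 7, 141262706 to 141266481), which drives interferon genes themselves, was at 13.9, 9.69, 60.7 and 11.9 CPM in dendritic cell-like cells and 27.8, 48.3, 59.8 and 32.5 in neutrophil-like cells. Classical monocyte-like cells had Irf7 at 142, 93.9, 110 and 96.2 CPM, highest in PBS. Irf9, the DNA-binding part of ISGF3, was at 37.4, 24.2, 47.4 and 24.4 CPM in dendritic cell-like cells and nearly flat in endothelial-like cells, at 64.1, 75.9, 75.7 and 65.2. Stat2 was at 28.4, 42.6, 89.8 and 37.6 CPM in dendritic cell-like, 23.5, 30.2, 49.2 and 13.4 in neutrophil-like and 93.2, 122, 100 and 81.3 in endothelial-like cells. For the 3 factors together 15 of 42 pairs were higher in LPS than in PBS and 1 lower, against 13.4% to 31.5% and 10.3% to 27.8% of all genes by class, a smaller share than in the Ifit or OAS groups. Irf9 passed 1.5-fold in 2 of 14 classes and Irf7 in 8 of 14. The difference between the groups was not tested.

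Among the sensors, Zbp1 (ENSMUSG00000027514, chromosome 2, 173206612 to 173218923), which senses left-handed nucleic acid and can start necroptosis, was higher in LPS than in PBS in 13 of 14 classes and lower in LPS+RT than in LPS in 13 of 14. In neutrophil-like cells it was at 12.8, 4.03, 109 and 17.3 CPM, and in dendritic cell-like cells at 10.9, 9.69, 113 and 20.5. In endothelial-like cells it was at 5.36, 2.74, 31.7 and 3.85 CPM. In all 3 classes LPS+RT lay within a factor of 2 of PBS. Fibroblast-like cells kept more, at 6.22, 8.03, 43.5 and 18.3 CPM. The base was high and the series shallow in classical monocyte-like cells, at 110, 54.3, 166 and 101 CPM. Ifih1, the gene of the long double-stranded RNA sensor MDA5, was at 17.5, 36.8, 123 and 25.1 CPM in dendritic cell-like cells and 50.1, 89.1, 82.5 and 55.6 in endothelial-like cells. It was thus higher in PBS+RT than in PBS in both (log2 ratios 1.07, 0.34 to 1.82, and 0.83, 0.70 to 0.96). Ddx58, which encodes RIG-I, was at 40.7, 41.3, 69.9 and 47.3 CPM in neutrophil-like cells, and Dhx58 (LGP2) at 14.98, 7.05, 6.05 and 2.68, the 1 member at least 1.5-fold lower in LPS in that class (log2 ratio -1.31, -2.40 to 0.04).

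PARP9, PARP14 and DTX3L, enzymes of ADP-ribosylation and ubiquitin transfer, come next. Parp14 was at 29.0, 44.6, 240 and 46.9 CPM in dendritic cell-like cells, 40.7, 55.4, 299 and 71.5 in neutrophil-like cells and 46.8, 82.9, 138 and 72.1 in T cell-like cells. It was higher in LPS in 12 of 14 classes. Dtx3l and Parp9, whose genes overlap, were at 13.3, 28.1, 84.4 and 19.2 CPM and 18.1, 34.9, 103 and 31.7 CPM in dendritic cell-like cells. For the 3 genes 30 of 42 pairs were higher in LPS than in PBS and 1 lower. In LPS+RT 35 of 42 were lower than in LPS and none higher. In PBS+RT 11 of 41 were higher than in PBS and 4 lower. Of all genes, 6.89% to 27.4% by class were higher in PBS+RT than in PBS (56.1% in erythroid-like cells) and 9.9% to 30% lower. The 11 of 41 thus lies within the background range.

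The Ifi200 genes encode nuclear proteins that bind DNA. Ifi204 was at 19.3, 27.2, 139 and 43.5 CPM in neutrophil-like cells and 9.06, 19.4, 66.6 and 10.6 in dendritic cell-like cells. Classical monocyte-like cells held it at 242, 224, 165 and 126 CPM, lower in both LPS libraries. Ifi211 was at 1.30, 0.909, 35.1 and 7.70 CPM in alveolar macrophage-like cells, and Ifi203 at 10.2, 6.79, 55.1 and 15.4. Ifi203 in fibroblast-like cells was at 23.5, 68.9, 85.9 and 39.8 CPM, with PBS+RT close to LPS. For the 4 genes 28 of 45 pairs were higher in LPS than in PBS and none lower, and 32 of 43 were lower in LPS+RT than in LPS and none higher.

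Ifi27l2a, Bst2 and Ifi35 were the exceptions. Ifi27l2a (ENSMUSG00000079017, chromosome 12, 103442167 to 103443680), the gene of a small hydrophobic protein, was at 1742, 933, 385 and 749 CPM in classical monocyte-like cells. Both LPS libraries were low there and LPS was the lowest, with log2 ratios of -2.18 (-2.24 to -2.11) for LPS to PBS, 0.96 (0.90 to 1.02) for LPS+RT to LPS and -0.90 (-0.996 to -0.81) for PBS+RT to PBS. Inside cluster 26 of that class its levels were 1742, 944, 1041 and 1692 CPM, and inside cluster 20, which held 571 of the 685 LPS cells, it was at 309 CPM in LPS and 257 in LPS+RT. LPS+RT was thus not above LPS inside cluster 20. In T cell-like cells it was at 414, 320, 282 and 370 CPM and in B cell-like cells at 406, 264, 269 and 315. In fibroblast-like cells the order differed, at 265, 169, 416 and 600 CPM, highest in LPS+RT. In neutrophil-like cells it was at 111, 158, 105 and 105 CPM. Over 14 classes it was higher in LPS than in PBS in 2 and lower in 4, and in LPS+RT it was higher than in LPS in 4 and lower in 1.

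Bst2 (ENSMUSG00000046718, chromosome 8, 71534255 to 71537456) encodes tetherin, which holds budding virus at the cell surface. In endothelial-like cells it was at 452, 244, 379 and 390 CPM, with PBS+RT as the only low library (log2 ratio to PBS -0.89, -0.95 to -0.84) and with LPS+RT and LPS within counting error of each other (0.04, -0.03 to 0.12). Classical monocyte-like cells had it at 219, 165, 347 and 267 CPM, and in dendritic cell-like cells at 169, 219, 228 and 172. In neutrophil-like cells it was at 25.7, 82.5, 108 and 48.8 CPM. Bst2 was lower in PBS+RT than in PBS in 7 of 14 classes and higher in 1. Ifi35, which encodes a leucine zipper protein, was at 98.6, 67.8, 86.1 and 86.7 CPM in endothelial-like cells. Of these genes together with Ifi44, Xaf1 and Rtp4, 26 of 77 pairs were higher in LPS than in PBS and 9 lower, and 31 of 67 were lower in PBS+RT than in PBS and 2 higher. The background by class was 13.4% to 31.5% for higher in LPS than in PBS and 9.9% to 30% for lower in PBS+RT than in PBS.

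**Figure D4:**
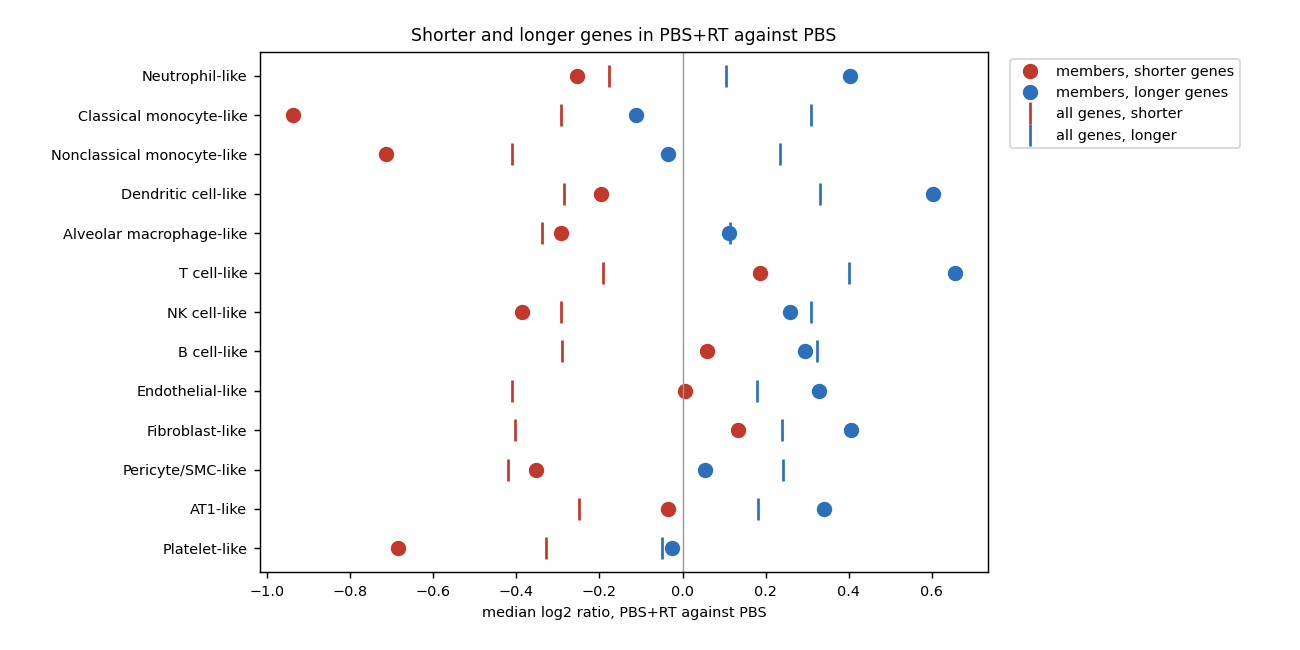
Median log2 ratio of PBS+RT to PBS (x axis) by class, split at a gene length of 16000 bp, for the members (dots) and for all genes (ticks), with shorter genes in red and longer genes in blue. In every class shown the longer members lie to the right of the shorter ones, as do the ticks of all genes.

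Some members that were low in PBS+RT, such as Isg15, Bst2 and Ifi27l2a, are genes of 1395, 3202 and 1514 bp, and some that were high, such as Herc6, Ifih1 and Parp14, span 83633, 50458 and 38671 bp. Rtp4, a long gene of 93932 bp, went the other way and was lower in PBS+RT than in PBS in 8 of 12 classes and higher in 1. These examples were chosen after their values were seen. Over all genes the PBS+RT library had the same split, and PBS+RT also had the highest median of UMIs per cell. In endothelial-like cells the median log2 ratio of PBS+RT to PBS was 0.01 for members up to 16000 bp and 0.33 for longer ones, against -0.41 and 0.18 for all genes. The same medians in classical monocyte-like cells were -0.94 and -0.11, against -0.29 and 0.31. Those in dendritic cell-like cells were -0.20 and 0.60, against -0.28 and 0.33. The part of gene length and depth in the values of PBS+RT was not tested. The split was not seen where LPS was compared with PBS: shorter and longer members had medians of 2.46 and 2.45 in dendritic cell-like and 2.05 and 2.12 in neutrophil-like cells. For LPS+RT to LPS they had -2.17 and -1.71 in dendritic cell-like and -1.34 and -1.44 in neutrophil-like cells.

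The difference of both radiation ratios, LPS+RT to LPS minus PBS+RT to PBS, was then computed for each member. In dendritic cell-like cells it was below 0 for 25 of 26 members, with a median of -1.84 beside -0.27 for all genes. In neutrophil-like cells it was below 0 for 28 of 31 (median -1.503 beside -0.02), in T cell-like cells for 23 of 26 (-1.11 beside -0.31) and in endothelial-like cells for 26 of 32 (-0.90 beside -0.04). In classical monocyte-like cells, where the members were lower in the irradiated library of both pairs, it was below 0 for 20 of 35, with a median of -0.14 beside -0.11. The share of all genes below 0 is not given here, so the counts of members below 0 have no background beside them. The median of all genes was itself below 0 in each class named. The difference has no test, with 1 library per group.

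How the members were spread over single cells was read after each cell had been thinned to 1000 UMIs, which leaves out shallower cells. In neutrophil-like cells 6.06%, 9.09%, 20.4% (19.0 to 21.8) and 7.08% (5.34 to 9.19) had at least 5 member UMIs, with 12, 20, 321 and 172 cells left out. Without thinning the shares were 47.4%, 63.0%, 53.5% and 29.8%. The thinned median was 1 member UMI per cell in all 4 libraries, and the 10% of cells with the most held 36.8%, 38.3%, 59.0% and 54.4% of the member UMIs. The higher sum in LPS thus lay in a minority of the neutrophil-like cells. The thinned shares in dendritic cell-like cells were 4.65%, 6.0%, 32.8% (24.4 to 42.0) and 6.74%, in endothelial-like cells 7.05%, 10.5%, 14.0% and 8.42%, and in T cell-like cells 4.32%, 5.46%, 12.9% and 5.01%. They were highest in classical monocyte-like cells, at 49.5%, 29.3%, 41.6% and 29.0%. NK cell-like cells, with 1.07%, 0.735%, 2.39% and 0.906%, had the smallest LPS share of the classes named here.

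**Figure D5:**
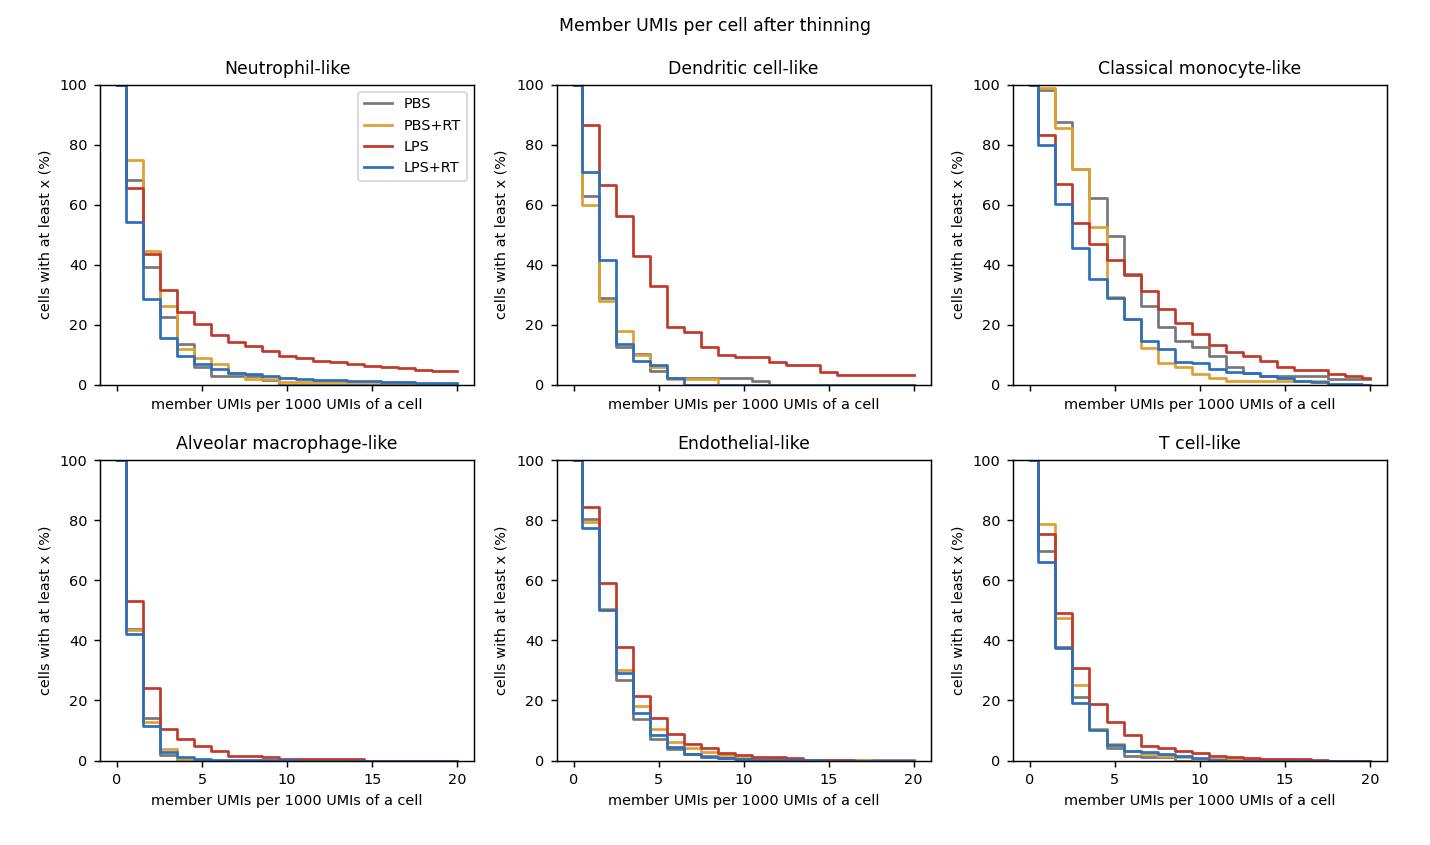
Share of cells (y axis, %) with at least the number of member UMIs on the x axis, after thinning each cell to 1000 UMIs, for 6 classes and 4 libraries (colours). In neutrophil-like and dendritic cell-like cells the LPS curve lies above the others at 5 UMIs and beyond, and in classical monocyte-like cells the PBS curve is the highest at 5 UMIs.

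When the members were allowed into the clustering, a cluster of 607 cells formed of which 583 came from LPS and 24 from LPS+RT. Of its cells 99.7% were neutrophil-like by the first clustering, and 32 members were at least 2-fold above the other cells. Since the members helped to form it, this is a description. Inside the clusters made without them, the summed member level in neutrophil-like cells was 4110 CPM in LPS and 1980 in LPS+RT for cluster 0, 1900 and 1096 for cluster 15, 4330 and 1512 for cluster 17 and 2855 and 1654 for cluster 21. LPS was higher in each. Cluster 17 has few UMIs per cell, 0.185 of its libraries' median.

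Over 52 points of class and library, with the mean of each class removed, the level of a member correlated with the mean of the other members with a median Pearson r of 0.76, and 34 of 36 members were above 0.5. Isg15 had the highest value (0.90) and Ifi27l2a the lowest (0.10). The points share their libraries and depth, so this is a description without a test.

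The ligands of the pathway were close to absent from the counts. The 19 listed genes of type I and type III interferons summed to 8, 4, 15 and 8 UMIs, and 17, 17, 16 and 17 of them had none. Ifnb1 had 6 UMIs in 5 cells of LPS and none in the other libraries. Interferon-gamma, the type II ligand made by T and NK cells, had 126, 108, 3278 and 385 UMIs. Its gene Ifng was at 10.5, 12.1, 411 and 23.3 CPM in T cell-like cells and at 67.2, 60.2, 449 and 127 in NK cell-like cells. Cxcl10, a chemokine that both interferon types induce, was at 59.2, 3.88, 567 and 14.5 CPM in dendritic cell-like, 36.4, 4.03, 584 and 27.1 in neutrophil-like and 145, 2.68, 627 and 37.2 in classical monocyte-like cells. So Cxcl10 was lower in PBS+RT than in PBS in these 3 classes, where its PBS+RT levels rest on few UMIs. Summed over all cells, Cxcl10 had 1522 UMIs in PBS and 1046 in PBS+RT, and most of the latter lay outside the 3 classes. Its levels in other classes are not given here, so the lower level is not claimed for them. Which interferon stands behind the members' levels was not tested.

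Ifnar1 was at 50.7, 75.8, 76.9 and 60.6 CPM in endothelial-like and 36.4, 71.5, 91.6 and 123 in neutrophil-like cells, and Ifnar2 at 156, 161, 159 and 162 and at 133, 111, 245 and 299. Neutrophil-like cells thus had their highest Ifnar1 and Ifnar2 levels in LPS+RT. Of the other listed receptors, Il10rb (133, 128, 301 and 353 CPM) and Ifngr2 (70.6, 42.3, 152 and 156) were also highest there. Ifngr1 was lowest there, at 188, 169, 107 and 97.7 CPM, and Ifnlr1 was highest in PBS, at 47.1, 16.1, 20.7 and 23.8. Of 6 listed receptor genes none passed 1.5-fold between LPS+RT and LPS in neutrophil-like cells. Socs1, a brake on JAK kinases, was at 10.3, 7.75, 46.4 and 17.2 CPM in dendritic cell-like and 19.3, 6.04, 69.1 and 50.02 in neutrophil-like cells. Of 8 listed brakes 5 were higher in LPS than in PBS and none lower in each of these classes, where 29.6% and 31.5% of all genes were higher.

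The interferon-inducible GTPases of the GBP and IRG families, which attack vacuoles of intracellular microbes and respond strongly to interferon-gamma, are the nearest other gene set. All 15 measured ones were at least 1.5-fold higher in LPS than in PBS in classical monocyte-like cells, with a median log2 ratio of 3.23, in the class where the type I members had 0.12. In dendritic cell-like cells 15 of 15 were higher (median 3.45, beside 2.46 for the members), and in endothelial-like cells 15 of 16 (1.5 beside 0.56). In LPS+RT 15 of 15 were lower than in LPS in classical monocyte-like cells (median -2.26 beside -0.74), and none was higher in the dendritic, neutrophil-like or endothelial-like class. The difference between the gene sets was not tested. A list of 25 other interferon-induced genes had 22 of 25 higher in LPS in dendritic cell-like cells. In classical monocyte-like cells 5 of 25 were higher and 6 lower. There 12 of 25 were lower and none higher in PBS+RT against PBS. Of all genes, 29.6% were higher in LPS than in PBS in dendritic cell-like and 13.4% in endothelial-like cells. In classical monocyte-like cells 24% were higher and 25.6% lower, so the 5 and 6 of 25 lie near the background. For LPS+RT against LPS 11.4% were lower in that class. For PBS+RT against PBS 14.9% were lower and 25.8% higher there. Higher in LPS+RT than in LPS were 12.2% in dendritic cell-like, 11.4% in neutrophil-like and 5.85% in endothelial-like cells.

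S100a8, a neutrophil marker, was also counted in other classes of LPS, and whether it came from neutrophil RNA in their droplets was not tested. S100a8 was at 12458 CPM in neutrophil-like cells of LPS. In the other classes there it was at 0.422% (NK cell-like) to 12.3% (nonclassical monocyte-like) of that level. It was 0.658% in dendritic cell-like, 0.569% in T cell-like, 1.34% in alveolar macrophage-like, 2.68% in classical monocyte-like and 4.47% in endothelial-like cells. That share of the neutrophil-like member level would come to 0.575% of the members' sum in dendritic cell-like and 6.23% in endothelial-like cells, and 19.5% in platelet-like cells. In LPS+RT it was at most 1.22% of the S100a8 level.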

How the data were processed

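Cell Ranger 7.0.1 made the matrices, per the file headers, and they hold unnormalized UMI counts for each barcode, as deposited by the authors. The submitters' processing notes list the build mm10, Seurat 4.3.0, R 4.2.2 and Cell Ranger 7. Whether intron reads were counted is not given in the sources used here, and barcodes shared between libraries were not analysed here. The libraries held 10083, 6708, 9572 and 10996 barcodes with 65995600, 69119644, 80013887 and 78669568 UMIs (PBS, PBS+RT, LPS, LPS+RT).

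Barcodes needed 500 UMIs, 200 genes and no more than 10% of UMIs from mitochondrial genes. Doublets were scored per library against simulated pairs (expected rate 8%), and 148, 118, 139 and 305 (1.64%, 1.86%, 1.52% and 3.08%) were removed. Only 15.3% to 26.0% of simulated doublets passed the threshold, so doublets remain. Cells of all libraries were clustered together (2000 variable genes without the members and 4 lists of interferon genes, 30 components, 15 neighbours, Leiden resolution 1.5), giving 56 clusters. A cluster was named when at least 3 markers of a class lay in at least 10% of its cells and 2-fold above the other clusters, and stayed unnamed when another class reached over 60% of the best score. The thresholds and the merging of dendritic classes were set after the clusters had been seen. This left 12 clusters unnamed and 20 of 25 marker classes named.

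UMIs were summed per class and library (at least 50 cells) and scaled to CPM. A ratio has an exact conditional binomial interval of 95%, and a gene at 0 UMIs was set to 3 counts for a fold, which is then a lower bound. In a comparison every listed gene is counted. For each class a rule picked the 3 highest and 2 lowest among members with at least 20 CPM and 30 UMIs, ranked after adding 10 CPM. A fixed group of members and pathway genes was named besides. Not every member that the rule picked is given here, such as Ifit2 in dendritic cell-like cells for LPS against PBS. A pathway gene that this rule picks is not reported here. Other members named for a class were chosen after their values were seen. The members, lists and rules were chosen with earlier results of these data known. The interval step was tested on simulated data for endothelial-like cells in LPS against PBS (11081 genes). It held the true ratio in 95.3% of unchanged genes, 95% of 1.5-fold and 98% of 3-fold genes. The interval lay above a ratio of 1 in 2.55%, 93% and 100% of them.

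Alternatives were another scaling, equal weight per cell, other limits on CPM, UMIs, mitochondrial share and fold, other class names, doublets kept, the members used in the clustering, 1 cluster per class, another thinning depth and, added after seeing the data, leaving out clusters of few UMIs. The software was matplotlib 3.10.9, pandas 2.3.3, scikit-learn 1.9.0, python-igraph 0.11.9, leidenalg 0.10.2, scipy 1.17.1, scikit-image 0.26.0 and numpy 2.4.6 under Python 3.11.15.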

Additional observations from a re-analysis of the deposited data

Results flagged for a closer look

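In 8 classes the members lay on opposite sides of 0 for irradiation in the inflamed and in the saline lung: their median was below 0 in LPS+RT against LPS and above 0 in PBS+RT against PBS. The median difference of the log2 ratios was -1.84 in dendritic cell-like, -1.503 in neutrophil-like, -1.11 in T cell-like, -0.897 in endothelial-like, -0.829 in B cell-like, -0.818 in fibroblast-like, -0.776 in AT1-like and -0.305 in NK cell-like cells. In 4 of the 8 the saline median fell below 0 under at least 1 alternative, to as low as -0.016 in B cell-like, -0.0097 in dendritic cell-like, -0.10 in NK cell-like and -0.17 in neutrophil-like cells, so the opposite sign was not stable there. The difference was not tested, since each group is 1 library.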

How the results depend on the processing

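No paired analysis was possible because each group is 1 library and the labels give no replicate numbers. The sign of the class median was the same under every alternative run in 14 of 14 classes for LPS against PBS and for LPS+RT against LPS, in 7 of 14 for PBS+RT against PBS and in 3 of 13 for LPS+RT against PBS+RT.

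Values that moved are given with the reported value in parentheses, and the cause was not tested. With each cell named by its own marker score, LPS against PBS was 1.56 (0.57) in AT1-like and 1.33 (0.73) in interstitial macrophage-like cells, LPS+RT against LPS -0.94 (-0.47) in the latter, the radiation difference -0.59 (-0.90) in endothelial-like cells, and PBS+RT against PBS -0.27 (1.79) in erythroid-like cells. With at least 20 CPM, alveolar macrophage-like cells had 1.27 (1.78) for LPS against PBS and -0.99 (-1.30) for LPS+RT against LPS. With no limit they had -0.30 (-0.10) for PBS+RT against PBS and 1.16 (0.00) for LPS+RT against PBS+RT. Inside 1 cluster, LPS against PBS was 0.32 (0.56) in endothelial-like cells, LPS+RT against LPS was -1.17 (-0.74) in classical monocyte-like and -0.85 (-1.44) in neutrophil-like cells, and the radiation difference was -0.21 (-0.90) in endothelial-like and 0.087 (-0.67) in pericyte-like cells. With the members in the clustering, LPS+RT against LPS was -0.071 (-0.47) in interstitial macrophage-like cells.

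Counts of members past 1.5-fold that left 1.5 times the reported value ran over these ranges. For higher in LPS than in PBS they were 11 to 30 (14) in AT1-like, 14 to 30 (25) in alveolar macrophage-like, 9 to 23 (20) in B cell-like, 7 to 14 (13) in classical monocyte-like, 10 to 27 (18) in interstitial macrophage-like, 11 to 30 (19) in nonclassical monocyte-like, 6 to 23 (14) in pericyte-like and 9 to 22 (15) in platelet-like cells. For lower in LPS+RT than in LPS they were 12 to 32 (14), 16 to 32 (27), 9 to 23 (17), 8 to 15 (13, fibroblast-like), 1 to 28 (14, interstitial macrophage-like), 17 to 31 (27, nonclassical monocyte-like), 4 to 22 (16, pericyte-like) and 8 to 22 (17, platelet-like), the first 3 in AT1-like, alveolar macrophage-like and B cell-like cells. For PBS+RT against PBS, higher ones were 6 to 15 (10) in dendritic cell-like and 7 to 13 (11) in neutrophil-like cells, and lower ones 7 to 14 (11) in nonclassical monocyte-like and 2 to 14 (13) in platelet-like cells. Other counts that moved so far were under 10 or set LPS+RT against PBS+RT, where higher ones were 6 to 13 (10) in neutrophil-like and in fibroblast-like and 5 to 15 (12) in platelet-like cells and lower ones 6 to 16 (12) in neutrophil-like cells.

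Thinned to 2000 UMIs, the share of cells with at least 5 member UMIs per 1000 was 18.4% (20.4%) in neutrophil-like cells of LPS, 2.25% (6.74%) in dendritic cell-like cells of LPS+RT, 1.52% (11.4%) in nonclassical monocyte-like cells of PBS+RT and 8.53% (12.9%) in T cell-like cells of LPS. In endothelial-like cells it was 4.14% (7.05%), 7.50% (10.5%), 9.85% (14.0%) and 4.59% (8.42%) in PBS, PBS+RT, LPS and LPS+RT. With doublets kept it was 2.25% in dendritic cell-like cells of LPS+RT, 4.29% in nonclassical monocyte-like cells of PBS+RT and 8.85% in endothelial-like cells of PBS, and alveolar macrophage-like cells of PBS had 0% (0.159%) under both. The depth limits classes with few cells, such as 50 dendritic cell-like cells in PBS+RT.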

Other observations

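In erythroid-like cells, which had enough cells in PBS and PBS+RT alone, Rsad2 was at 301 CPM in PBS and 188 in PBS+RT and Isg15 at 163 and 82.3 CPM. In 15 plasmacytoid dendritic cell-like cells of PBS, the class known for making type I interferon, the members summed to 3990 CPM.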
